A study of Mus musculus with 2 samples.

Results

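Noncollagen genes of the extracellular matrix were described in heart: 40 genes for glycoproteins, proteoglycans, elastic fibre components and the enzymes that crosslink them, picked by symbol from 55536 annotated genes, each found under 1 gene identifier. The tissue was heart of male B6CASTF1/J mice, a cross of C57BL/6J with the wild-derived strain CAST/EiJ, at 14 days of age. Stranded total RNA libraries were made from 300 ng of RNA with ribosomal RNA reduced and spike-in RNAs added, in 2 biological replicates; these make up 1 group, with no treated or mutant counterpart. The labels speak of 3 males and give both libraries the same donor label, and whether animals were pooled is not stated; the spread between the libraries may therefore be partly technical. Levels are TPM, transcript abundances that are scaled for gene length and library size, and are given for replicate 1 and replicate 2 in that order, or as mean ± SD with n = 2.

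The extracellular matrix outside the collagens is built by several families. Basement membrane proteoglycans and nidogens tie laminin and collagen IV sheets together around cardiomyocytes and vessels, small leucine-rich proteoglycans bind collagen fibrils and set their width, and fibrillin microfibrils with elastin form elastic fibres, which lysyl oxidases crosslink. Fibronectin and the matricellular glycoproteins, such as SPARC, periostin, thrombospondins and tenascins, bind cell surface receptors or modify how cells meet the matrix. In the heart most of these RNAs are known to come from fibroblasts, endothelial cells, smooth muscle cells and pericytes rather than from cardiomyocytes. In whole tissue, fewer cells of a type and less RNA per cell cannot be told apart.

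The libraries held 39334380 and 46391250 expected counts, the number of fragments assigned to genes. Cardiomyocyte markers were high in both libraries (for example Tnnt2 at 3486 and 3260 TPM, the troponin T of heart), as the heart label implies, and 7 of 7 fibroblast markers, 6 of 6 endothelial markers, 5 of 5 smooth muscle markers and 5 of 5 pericyte markers reached 1 TPM in both. The libraries differed in some tissue markers. Atrial markers summed to 1585 TPM in replicate 1 and 491.7 in replicate 2, adipocyte markers to 53.5 and 32.9, and T cell and thymus markers to 1.3 and 45.3.

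Of the 40 genes, 39 were detected, that is, at 1 TPM or more in both libraries, and 29 reached 10 TPM in both. Together they took 0.236% and 0.215% of all TPM, or 0.558% and 0.511% of what nuclear protein-coding genes took. Their median was 26.9 and 24.9 TPM, against 9.72 and 9.94 TPM for the detected nuclear protein-coding genes. The list is steep: the top 5 genes, Sparc, Eln, Hspg2, Dcn and Sparcl1, took 57.0% and 55.5% of the summed TPM, and Sparc alone 24.0% and 25.5%. Expected counts per gene and library ran from 32 for Hapln1 to 76760 for Hspg2. When the genes are ordered by mean TPM, the libraries' values overlap in 22 of the 39 neighbouring pairs, Eln and Hspg2 near the top among them, so that much of the order is not settled by these 2 libraries.

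**Figure D1:**
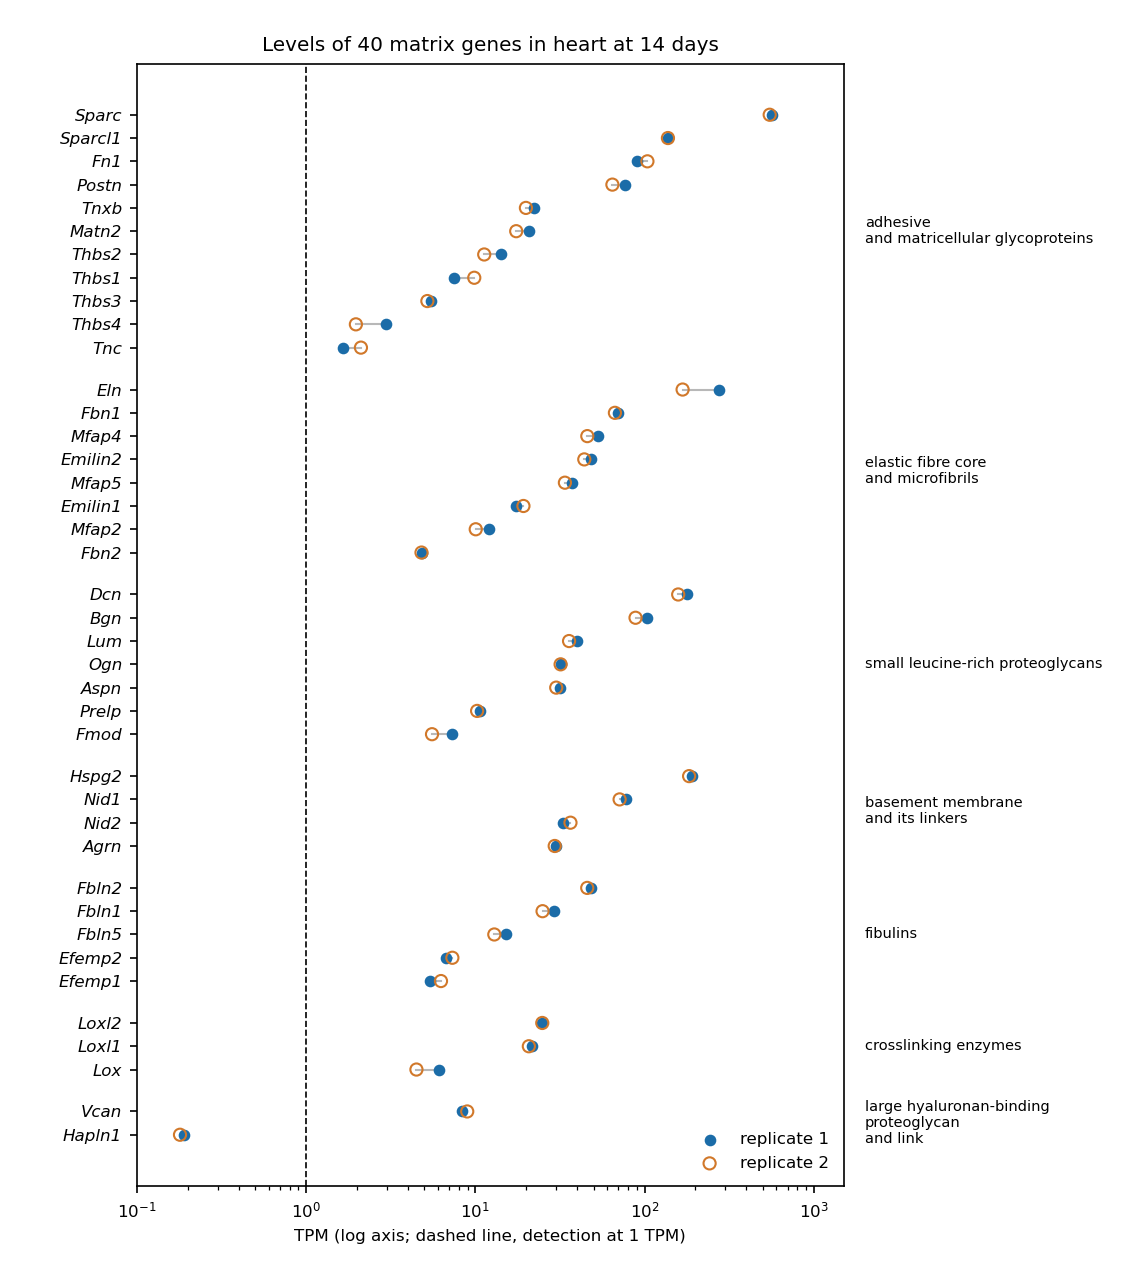
TPM (log axis) of each of the 40 genes in replicate 1 (filled) and replicate 2 (open), ordered by class and by mean level; the dashed line is the detection limit of 1 TPM. Sparc leads at 566 and 549 TPM, Hapln1 lies below the line at 0.19 and 0.18 TPM, and the widest gap between libraries among the high genes is that of Eln, 274 against 168 TPM.

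By class, the adhesive and matricellular glycoproteins had the highest summed level (946.1 and 922.7 TPM, 11 genes), of which Sparc was the larger part. The elastic fibre core and microfibril genes followed at 516.5 and 392.6 TPM (8 genes), the small leucine-rich proteoglycans at 402.2 and 360.1 TPM (7 genes) and the basement membrane genes with their linkers at 332.1 and 320.5 TPM (4 genes). The fibulins summed to 105.2 and 97.4 TPM (5 genes), the crosslinking enzymes to 52.4 and 50.1 TPM (3 genes), and versican with its link protein to 8.54 and 9.14 TPM. The order of the 7 classes by summed TPM was the same in both libraries. By the median gene the order differed: the basement membrane class led with 54.7 ± 1.22 TPM, ahead of the elastic fibre class with 40.9 ± 2.69 TPM, the leucine-rich proteoglycans with 32.1 ± 0.198 TPM and the crosslinking enzymes with 21.2 ± 0.700 TPM, while the adhesive glycoproteins had a median of 19.1 ± 2.29 TPM.

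Among the adhesive and matricellular genes, Sparc (chromosome 11, 55394500 to 55423183, minus strand, mm10), a collagen-binding glycoprotein that steers collagen deposition, stood at 566.23 and 548.85 TPM and ranked 85 among detected nuclear protein-coding genes. Its relative Sparcl1 (chromosome 5, 104079111 to 104113733), known from endothelial and mural cells, was at 138.26 and 137.47 TPM. The 2 genes kept a ratio of 4.04 in Sparc's favour, with a log2 ratio of 2.03 and 2.00 within the libraries. Postn (chromosome 3, 54361109 to 54391037), periostin, a matricellular protein of valves and of activated fibroblasts, was at 76.14 and 64.58 TPM. Fn1, fibronectin, was above it in both libraries at 90.83 and 103.99 TPM. Tnxb, tenascin X, which supports collagen networks of loose connective tissue, was at 22.30 and 19.91 TPM, and Matn2, matrilin 2, a filament-forming adaptor protein, at 20.69 and 17.45 TPM.

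The 4 thrombospondins, calcium-binding glycoproteins of the cell surroundings, were all detected. Thbs2 was at 14.11 and 11.29 TPM and Thbs1, an activator of latent TGF-beta, at 7.50 and 9.86 TPM. Thbs2 was above Thbs1 in both libraries, but their log2 ratio changed from -0.90 to -0.19 between libraries as Thbs1 was higher and Thbs2 lower in replicate 2. Thbs3 stood at 5.45 and 5.21 TPM and Thbs4 at 2.96 and 1.97 TPM. Protein-coding transcripts held 56.1% and 48.0% of Thbs3 TPM, or 3.06 and 2.5 TPM, and 100% of Thbs4 TPM. The gap between these 2 genes was thus smaller in coding transcripts. Tnc, tenascin C, a matricellular protein of developing and injured tissue, was at 1.66 and 2.11 TPM, backed by 355 and 530 expected counts. By mean TPM it was the lowest detected gene of the list, although Thbs4 was below it in replicate 2. Tnxb exceeded Tnc 10.7-fold (log2 ratio of Tnc over Tnxb -3.67 and -3.18).

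Fn1 (chromosome 1, 71585520 to 71653200, minus strand, mm10; Ensembl identifier ENSMUSG00000026193.15) has the best known splicing of the list. Fibronectin is a chain of repeats; 2 cassette exons, EIIIB and EIIIA, each encode 1 whole type III repeat, and a later exon has alternative starts that give or drop a variable region called V or IIICS. Plasma fibronectin, made by hepatocytes, is known to lack both cassette exons, whereas fibronectin made within tissues can hold them. The annotation held 17 Fn1 transcripts, 9 of them protein-coding, and 7 of these run past all 3 alternative positions. The exons are shown because the shares below count transcripts with or without them. They are printed 5′ to 3′ on the coding strand, as in the GENCODE M21 transcripts. Capitals mark, in EIIIA, the codons for Glu-Asp-Gly-Ile at the site that in human fibronectin binds integrins; in the first segment of the variable region, the codons for Leu-Asp-Val, the core of another integrin site; and in the RGD exon, the codons for Arg-Gly-Asp, the main cell attachment site. EIIIB has no capitals. The EIIIB exon lies at chr1:71613763-71614035 (273 bases), the EIIIA exon at chr1:71603660-71603929 (270 bases), the first variable segment at chr1:71597673-71597747 (75 bases) and the RGD exon at chr1:71606703-71606867 (165 bases).
EIIIB: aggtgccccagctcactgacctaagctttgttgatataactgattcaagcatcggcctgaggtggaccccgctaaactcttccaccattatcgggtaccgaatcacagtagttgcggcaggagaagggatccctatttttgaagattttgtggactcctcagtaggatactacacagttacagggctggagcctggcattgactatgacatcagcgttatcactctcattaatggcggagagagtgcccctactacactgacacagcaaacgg
EIIIA: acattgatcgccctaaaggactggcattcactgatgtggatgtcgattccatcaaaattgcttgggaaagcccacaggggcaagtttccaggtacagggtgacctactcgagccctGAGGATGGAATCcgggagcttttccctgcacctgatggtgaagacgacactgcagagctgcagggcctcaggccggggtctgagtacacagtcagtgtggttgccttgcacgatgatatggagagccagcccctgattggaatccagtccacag
V first segment: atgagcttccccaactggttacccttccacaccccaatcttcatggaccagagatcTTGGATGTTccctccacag
RGD exon: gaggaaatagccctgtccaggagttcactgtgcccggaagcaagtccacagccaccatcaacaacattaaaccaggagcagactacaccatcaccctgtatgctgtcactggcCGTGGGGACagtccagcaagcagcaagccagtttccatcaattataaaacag

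The RGD exon was held by all 7 of the long coding transcripts, while the other printed stretches were alternative. By the RSEM-style transcript table, the EIIIB exon was in 24.1% of the TPM of coding transcripts that span it in replicate 1 and 24.0% in replicate 2. The EIIIA exon was in 28.5% and 31.8%. Most TPM of the transcripts that span them was thus in forms without each cassette exon, and both exons were held by a share of it in each library. The kallisto-style table, another estimate of the same libraries, gave 21.4% and 19.6% for EIIIB and 25.9% and 30.9% for EIIIA. The annotation holds EIIIB in 1 transcript only, Fn1-201, which also holds EIIIA and the whole variable region; a form with EIIIB alone could not be counted.

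The variable region was less settled than the cassette exons. The whole region was in 55.8% and 56.6% of the TPM of the 7 long coding transcripts, which all span it, by the RSEM-style table and 73.5% and 72.7% by the kallisto-style table. The form without the first 75 bases, and so without the Leu-Asp-Val codons, took 17.7% and 18.6% by the first table and 17.6% and 16.5% by the second. The form without any of the region took 26.5% and 24.9% by the first table but 8.87% and 10.9% by the second. The whole region and the form without it were each closer between libraries than between tables. In the coding sequence 1095 bases lie between EIIIB and EIIIA and 813 bases between EIIIA and the variable region.

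Per transcript, the RSEM-style table put 25.2% and 28.0% of Fn1 TPM into Fn1-208, a coding transcript of 1350 bases that ends early in the gene and holds none of the alternative exons. The kallisto-style table put 5.60% and 7.30% there and 25.1% and 27.9% into Fn1-204, a retained intron transcript of 495 bases, which had 5.34% and 4.40% by the RSEM-style table. Fn1-211 and Fn1-213, which combine EIIIA with a shortened or missing variable region, had 0 TPM in both libraries by the RSEM-style table and under 0.1% by the other. Protein-coding transcripts as a whole took 91.2% of Fn1 TPM in each library by the RSEM-style table and 70.9% by the kallisto-style table.

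**Figure D2:**
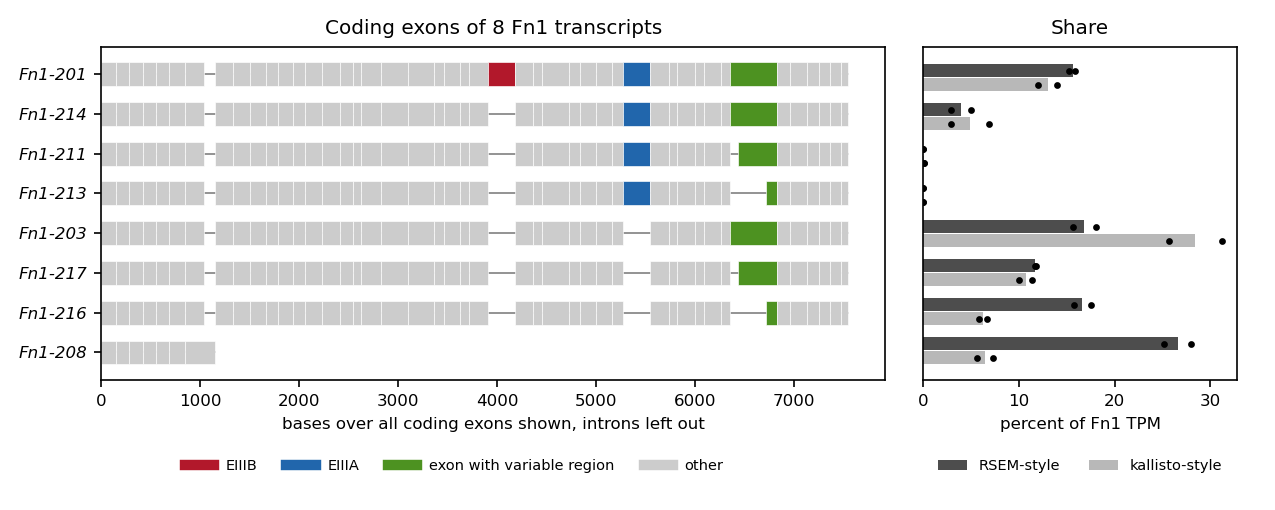
Left, coding exons of 8 Fn1 transcripts to scale in bases with introns left out; EIIIB is red, EIIIA blue and the exon with the variable region green. Right, each transcript's percent of Fn1 TPM (bars, mean of 2 libraries; points, each library) in the RSEM-style (dark) and kallisto-style (light) table; Fn1-201 alone has EIIIB and took 15.9% and 15.2%, and the short Fn1-208 differs most between the tables (26.6% against 6.45% on average).

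Postn showed a contrast between single exons and their combinations. Periostin has a variable carboxy-terminal stretch in which cassette exons are skipped in different forms. In the annotation 2 of its coding exons are skipped by some long coding transcripts, one of 81 bases (chr3:54380412-54380492) and one of 84 bases (chr3:54385671-54385754), each a whole number of codons. They are printed in lower case, without capitals, because their shares were nearly equal in the tables.
Postn first cassette: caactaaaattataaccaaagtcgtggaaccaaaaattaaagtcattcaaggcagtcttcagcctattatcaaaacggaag
Postn second cassette: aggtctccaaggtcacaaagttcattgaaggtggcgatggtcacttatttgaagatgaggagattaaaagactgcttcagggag

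The 81-base exon was in 29.2% and 29.3% of Postn coding TPM and the 84-base exon in 25.8% and 28.6%. The kallisto-style table gave 28.6% and 27.9% for the first and 27.7% and 28.8% for the second. Transcripts with both exons took 0% in both libraries by the RSEM-style table and 18.5% and 16.6% by the kallisto-style table, and transcripts with neither took 45.0% and 42.2% against 62.2% and 59.8%. Between the exons lie 258 coding bases in 3 exons. The share of each exon was therefore alike in both tables, while their joint use was not determined by these estimates.

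Sparc, the highest gene of the list, has an exon near its coding start with alternative beginnings that differ by 3 bases, a single glutamine codon (chr11:55407220-55407279, minus strand). Capitals mark the 3 bases that the shorter form lacks; the next 3 bases repeat them.
Sparc exon: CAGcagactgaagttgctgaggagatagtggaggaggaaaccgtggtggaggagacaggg

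The form with the 3 bases took 29.1% and 31.0% of Sparc coding TPM by the RSEM-style table and 53.9% and 58.0% by the kallisto-style table, so that the leading form differed between the tables while the libraries gave like shares within each table. Sparc-202, without the 3 bases, held 399 and 375 TPM and Sparc-201, with them, 160 and 168 TPM by the RSEM-style table. Sparc's gene level was 1.32 times as high by the kallisto-style as by the RSEM-style table, against a median of 1.12 over the 40 genes and 1.20 over 11408 detected nuclear protein-coding genes.

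Of the 7 small leucine-rich proteoglycans, decorin and biglycan led. Dcn (chromosome 10, 97479609 to 97518143), which binds collagen I fibrils and TGF-beta, was at 176.98 and 158.06 TPM, and Bgn (chromosome X, 73483602 to 73495933), its closest relative, at 103.63 and 88.46 TPM; Dcn was 1.75 times as high. Lum, lumican, a keratan sulfate proteoglycan of collagen fibrils, was at 39.75 and 35.81 TPM and exceeded Fmod, fibromodulin, which binds the same region of collagen, 5.85-fold (Fmod at 7.29 and 5.55 TPM). Ogn, osteoglycin or mimecan, and Aspn, asporin, stood at nearly the same level, 32.20 and 31.92 TPM against 31.76 and 30.07 TPM, a log2 ratio of 0.02 and 0.09. Prelp, which anchors basement membranes to collagen, was at 10.64 and 10.25 TPM, above Fmod in both libraries.

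Apart from Bgn, these genes lie in clusters, which the choice of the list did not use. Dcn and Lum are 47.0 kb apart on chromosome 10, where Kera and Epyc, keratocan and epiphycan of cornea and cartilage, lie within 126 kb of Dcn and had at most 0.12 TPM. Ogn and Aspn are 40.5 kb apart on chromosome 13 beside Ecm2 (7.87 and 6.71 TPM) and Omd, osteomodulin (1.46 and 0.78 TPM). Fmod and Prelp are 116 kb apart on chromosome 1, and Optc, opticin of the eye, 2.31 kb from Prelp, had 0.22 and 0.07 TPM. Each cluster thus held well detected genes beside genes near or under 1 TPM. Dcn has 2 transcripts of 1758 bases with the same coding exons and different first exons, to which the RSEM-style table gave 88.6% and 10.4% of Dcn TPM in replicate 1 and the kallisto-style table equal shares of 49.7%.

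Among basement membrane genes, Hspg2 (chromosome 4, 137468769 to 137570630), perlecan, the heparan sulfate proteoglycan of all basement membranes, was at 190.78 and 183.35 TPM. Nid1 (chromosome 13, 13437551 to 13512269) and Nid2, the nidogens that bridge laminin and collagen IV, were at 78.18 and 71.23 TPM and at 33.00 and 36.50 TPM, and Nid1 was 2.15 times as high. Agrn, agrin, a heparan sulfate proteoglycan that binds dystroglycan, was at 30.18 and 29.46 TPM. Hspg2 exceeded Agrn 6.25-fold, with log2 ratios of 2.66 and 2.63. From protein-coding transcripts alone Hspg2 was at 153.94 and 146.81 TPM and Agrn at 19.08 and 18.67 TPM, so the ratio was larger. Hspg2-202, of 820 bases and not annotated as coding, held 19.3% and 19.9% of Hspg2 TPM by the RSEM-style table. The kallisto-style table gave it 0.00063% and 1.77%. Dag1, the dystroglycan gene and the receptor for both, was at 156.6 and 148.3 TPM.

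Agrin is known for small alternative exons: the y insert of 4 residues adds heparin binding, and the z inserts of 8 and 11 residues, used by motor neurons, make agrin active in clustering acetylcholine receptors at the nerve-muscle junction. In the annotation a 12-base exon (chr4:156169546-156169557), a 24-base exon (chr4:156168546-156168569) and a 33-base exon (chr4:156167777-156167809), all on the minus strand, were held together by 1 coding transcript. They are shown because their presence separates that form from the other agrin transcripts.
Agrn exon of 12 bases: aaatcccgcaag
Agrn exon of 24 bases: cgagctgaccaatgagatcccagc
Agrn exon of 33 bases: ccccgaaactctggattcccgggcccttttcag

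That transcript took 5.97% and 2.46% of Agrn coding TPM by the RSEM-style table and 5.34% and 3.02% by the kallisto-style table, and the other coding transcripts lack all 3 small exons. Because the annotation has them in 1 transcript only, use of 1 of them alone could not be counted. Agrn-205, a retained intron transcript, held 33.9% and 32.7% of Agrn TPM by the RSEM-style table and 9.47% and 5.65% by the kallisto-style table.

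Versican and its link protein stood far apart. Vcan (chromosome 13, 89655312 to 89742509), the large chondroitin sulfate proteoglycan that binds hyaluronan and is needed for heart cushions in the embryo, was at 8.35 and 8.96 TPM. Hapln1, the link protein that fastens it to hyaluronan, was at 0.19 and 0.18 TPM, backed by 32 and 38 expected counts, and was the only gene of the list under 1 TPM. The genes neighbour each other, 43.7 kb apart, and Vcan was 30.7 times as high on the log2(TPM + 0.1) scale, which understates the ratio for low genes. Of the other link proteins, Hapln2, Hapln3 and Hapln4 had at most 0.43 TPM in either library. The hyaluronan synthases were low too, with Has1 at 0.20 and 0.40 TPM, Has2 at 0.23 and 0.28 TPM and Has3 at 0.83 and 0.50 TPM.

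Vcan carries 2 large exons that encode the chondroitin sulfate attachment regions, one of 2880 bases and one of 5217 bases, and its forms V0 to V3 are told by them. The form with the longer exon only, V1, took 45.6% and 47.7% of the TPM of coding transcripts that span them. The form with both, V0, took 24.9% and 25.7%, the form with neither, V3, 29.5% and 26.4%, and the form with the shorter exon only, V2, which is known from brain, 0% and 0.258%. The kallisto-style table gave V1 58.0% and 65.8% and V0 30.1% and 33.8%. It gave V3 11.9% in replicate 1 and 0.00575% in replicate 2, so the share of V3 was not determined, while V1 led in both tables and both libraries.

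In the elastic fibre class, Eln (chromosome 5, 134702593 to 134747323, minus strand), the precursor of elastin, was the second highest gene of the list by mean but the least even, at 274.48 TPM in replicate 1 and 167.84 TPM in replicate 2. The place rests on all its transcripts. From protein-coding transcripts alone Eln held 198.24 and 119.43 TPM, against 175.23 and 157.84 TPM for Dcn and 153.94 and 146.81 TPM for Hspg2. Fbn1 (chromosome 2, 125300594 to 125507993), the main fibrillin of microfibrils after birth, was at 69.38 and 66.82 TPM, and Fbn2, the fibrillin best known from the embryo, at 4.85 and 4.81 TPM. Fbn1 was 13.8 times as high as Fbn2, with log2 ratios of 3.81 and 3.77, the widest ratio among the pairs with both genes detected. Eln exceeded Fbn1 in both libraries, by log2 ratios of 1.98 and 1.33.

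Of the microfibril-associated genes, Mfap4, a fibrinogen-related protein of elastic fibres, was at 52.81 and 45.90 TPM, Mfap5, which binds fibrillin, at 37.18 and 33.84 TPM, and Mfap2, its close relative, at 12.01 and 10.06 TPM. Its main transcript is 1073 bases long, and the Mfap2 level was 1.46 times as high by the kallisto-style table, the widest gap between the tables in the list. The emilins, glycoproteins at the boundary of elastin and microfibrils, showed Emilin2 above Emilin1, 48.32 and 44.05 TPM against 17.49 and 19.25 TPM, a ratio of 2.51. By the RSEM-style table, the retained intron transcript Emilin1-203 of 601 bases held 30.6% and 34.1% of Emilin1 TPM, and coding transcripts 68.0% and 64.3%. The kallisto-style table put 8.68% and 16.2% into Emilin1-203 and 88.6% and 81.4% into the coding Emilin1-201. Of Eln TPM, coding transcripts held 72.2% and 71.2%, and Eln-203, annotated as subject to nonsense-mediated decay, 26.3% in each library by the RSEM-style table and 13.6% and 12.0% by the kallisto-style table. For Mfap4 the tables differed in the leading transcript. The RSEM-style table put 87.7% and 85.9% of Mfap4 TPM into the coding Mfap4-202. The kallisto-style table put 94.8% and 95.2% into Mfap4-203, not annotated as coding, which had 0% by the RSEM-style table.

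The fibulins, which link elastin to microfibrils and to basement membranes, were led by Fbln2 at 48.59 and 45.85 TPM and Fbln1 at 29.20 and 24.97 TPM. Fbln5, which binds elastin and lysyl oxidase-like 1 and is needed for elastic fibres, was at 15.27 and 12.95 TPM. Efemp2 (fibulin 4), likewise needed for elastic fibres, was at 6.72 and 7.32 TPM and Efemp1 (fibulin 3) at 5.43 and 6.27 TPM. Efemp2 was 1.20 times as high as Efemp1 per length. In counts not divided by length the order of Efemp2 and Efemp1 turned, so their order rests on the length scaling. Efemp2 overlaps Mus81 on the other strand (10.06 and 10.22 TPM); it is 1 of 6 genes of the list, with Ogn, Aspn, Mfap4, Nid2 and Thbs3, that overlap a detected gene there, and although the libraries are stranded, whether the counting used strand is not stated.

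Both leading fibulins are spliced. A 141-base exon of Fbln2 (chr6:91259630-91259770), which encodes a calcium-binding EGF repeat, was in 46.4% and 42.4% of the TPM of the coding transcripts that span it and in 45.3% and 40.5% by the kallisto-style table. It is printed, in lower case, because it was the cassette exon nearest to equal use in the list.
Fbln2 cassette: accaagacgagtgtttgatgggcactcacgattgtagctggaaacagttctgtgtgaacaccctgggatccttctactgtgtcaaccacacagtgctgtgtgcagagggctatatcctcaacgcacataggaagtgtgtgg

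Fbln1 has 2 alternative coding ends, the C and D forms; the transcript with the single shorter last coding exon, Fbln1-202, took 79.4% and 79.8%, and 75.2% and 75.5% by the kallisto-style table. Tnc, with few counts, held a 273-base exon in 12.7% and 19.1% of the TPM of the coding transcripts that span it, and Tnxb transcripts with 8 further exons took 76.8% and 79.0%.

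**Figure D3:**
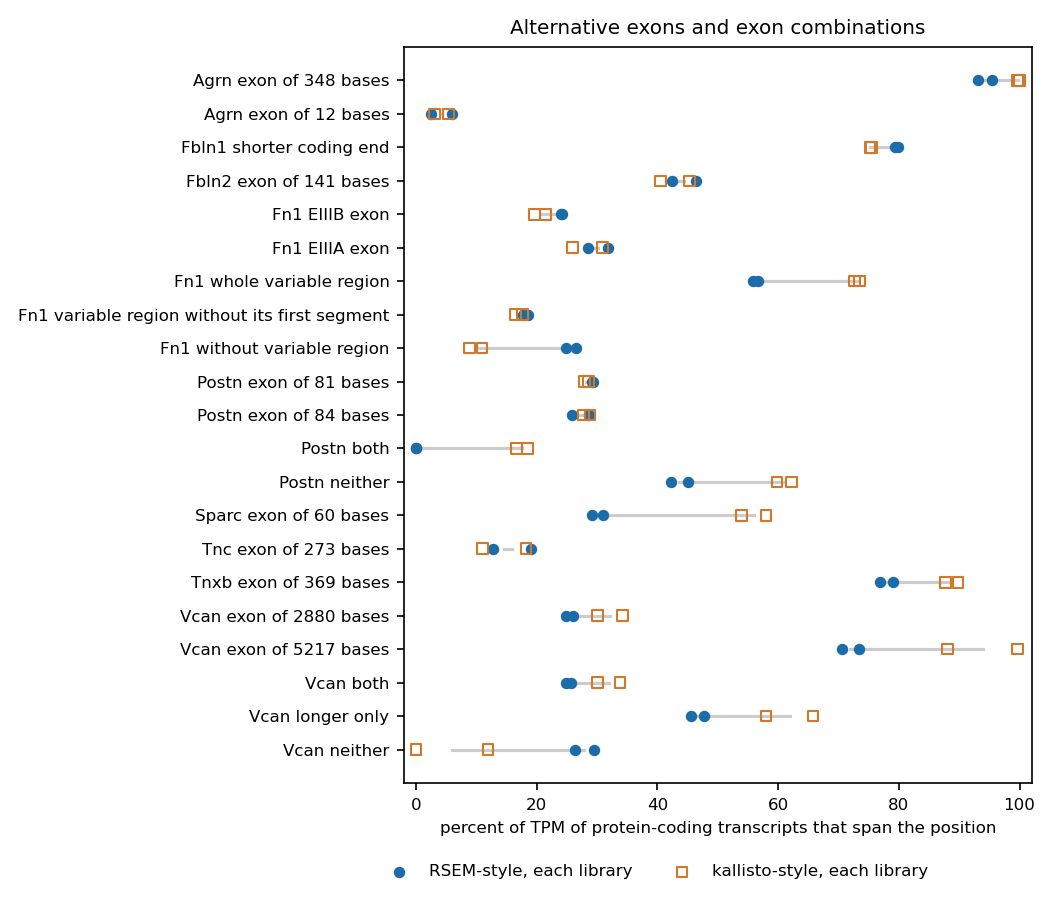
Share, in percent, of the TPM of the protein-coding transcripts spanning a position that was in transcripts with the alternative exon or exon combination, for each library in the RSEM-style (filled circles) and kallisto-style (open squares) table. Single cassette exons of Fn1, Postn and Fbln2 lie at like places in both tables (Postn 81-base exon 29.2% and 29.3% against 28.6% and 27.9%), whereas combinations such as Postn with both exons (0% against 18.5% and 16.6%) do not. Some single exons also differ between the tables, such as the 5217-base exon of Vcan (70.5% and 73.4% against 88.1% and 99.7%). The Tnxb exons do so too (76.8% and 79.0% against 87.7% and 89.8%).

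Of the 3 enzymes that crosslink elastin and collagen, Loxl2 was at 24.64 and 24.87 TPM, Loxl1 at 21.71 and 20.72 TPM and Lox, lysyl oxidase itself, at 6.08 and 4.49 TPM. Lox was below both relatives in both libraries, 4.00-fold below Loxl1 and 4.67-fold below Loxl2. The other family members were lower still, Loxl3 at 1.76 and 1.58 TPM and Loxl4 at 0.45 and 0.53 TPM. Loxl1 and Loxl2 differed by a log2 ratio of only -0.18 and -0.26 in Loxl2's favour.

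Over 24 pairs of related genes, the gene that was higher was the same in both libraries in 24 of 24 by RSEM-style TPM and in 23 by kallisto-style TPM, where Ogn was below Aspn in replicate 1 (34.27 against 35.30 TPM). The SD of the log2 ratio ran from 0.009 for Dcn over Lum to 0.502 for Thbs1 over Thbs2. In 13 pairs the ratio passed 1 log2 unit in both libraries. No test was made of these ratios, because an exact permutation test of 2 values cannot go below p = 0.5.

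**Figure D4:**
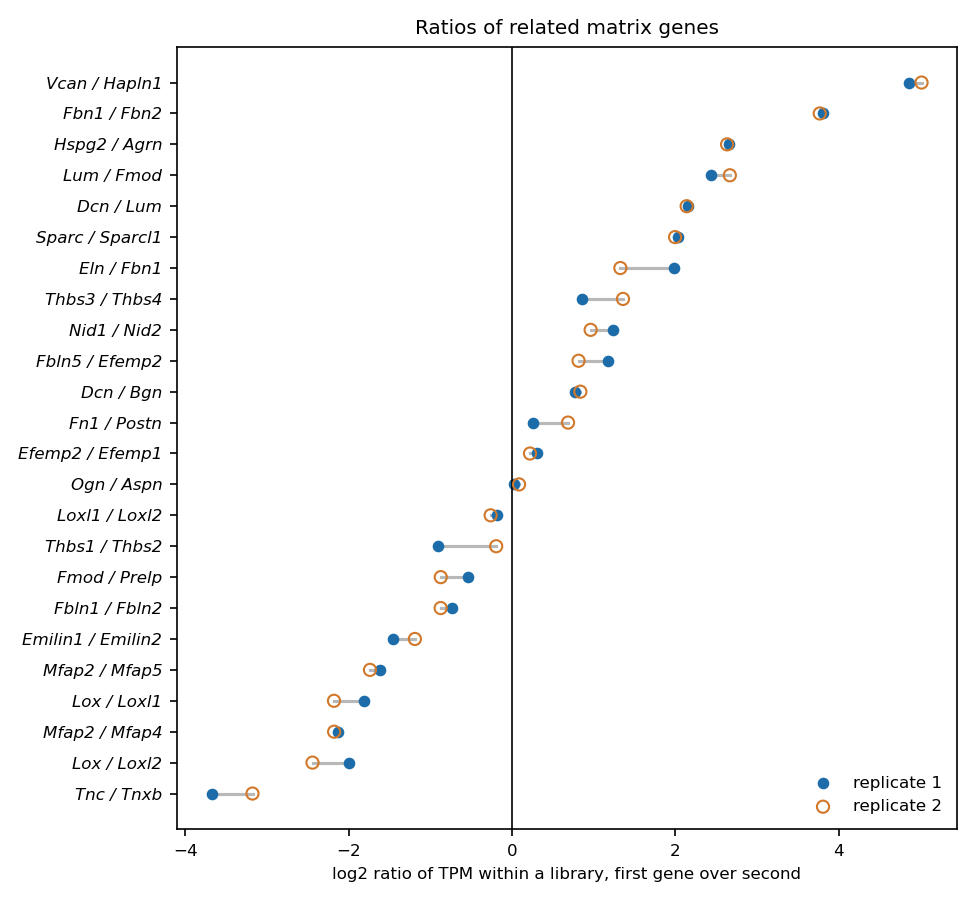
Log2 ratio of TPM (pseudocount 0.1) of the first gene over the second in each of 24 pairs, for replicate 1 (filled) and replicate 2 (open). No pair crosses 0 between the libraries; Vcan over Hapln1 is highest (4.87 and 5.02), Tnc over Tnxb lowest (-3.67 and -3.18), and Thbs1 over Thbs2 moves most.

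Genes that act with the 40 were read from 3 lists. Of 42 genes for making, sulfating or cleaving glycosaminoglycan chains, 33 were detected. The highest were Ndst1, a heparan sulfate sulfotransferase (42.03 and 37.04 TPM), the extracellular sulfatase Sulf2 (23.99 and 24.90 TPM), Extl3 (23.93 and 23.60 TPM) and Ext2 (19.69 and 20.48 TPM), all of the heparan sulfate pathway; 7 were under 1 TPM in both libraries, namely the 3 hyaluronan synthases, Chst3, Chsy3, Ust and Ndst3. Of 20 matrix receptors and cell surface proteoglycans 17 were detected, led by Cd36 (754.7 and 653.1 TPM), a thrombospondin receptor that also takes up fatty acids, Dag1, the glypican Gpc1 (93.08 and 91.00 TPM) and Lrp1 (39.12 and 34.85 TPM). The hyaluronan receptor Cd44 was at 5.14 and 6.15 TPM, and Gpc2, Gpc5 and Stab2 were under 1 TPM in both libraries. Of 62 further matrix glycoproteins and proteoglycans found, 39 were detected, led by Mgp (190.8 and 153.0 TPM), an inhibitor of calcification, Igfbp7 (180.4 and 180.6 TPM), Fstl1 (98.57 and 90.56 TPM) and Dpt (63.32 and 61.00 TPM). Aggrecan (Acan, 0.28 and 0.38 TPM), neurocan (Ncan) and brevican (Bcan, both at most 0.06 TPM), which like versican bind hyaluronan, were among 22 genes of this list under 1 TPM in both libraries. The others were Kera, Epyc, Optc, Chad, Esm1, Hapln2, Hapln3, Hapln4, Matn1, Matn3, Matn4, Tnr, Tnn, Fbln7, Loxl4, Spock1, Spock3, Frem1 and Ccn5, of which Tnr had the highest value in any library, 0.56 TPM in replicate 1.

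Counts were then compared between the libraries with a 2-sided exact binomial test on TMM-scaled expected counts, adjusted over 16611 genes by Benjamini-Hochberg. With 1 group, the test compares these libraries and not conditions, and it knows counting error only. None of the 40 genes passed at 2-fold or more, against 3.27% of all genes tested; 28 of the 40 had an unadjusted p under 0.05, against 5227 of the 16611 genes tested. At any ratio 24 of the 40 passed, against 22.0% of all genes tested: 4 were higher in replicate 2 (background 10.9%) and 20 were lower (background 11.1%). The share over all genes depends on depth, and 39 of the 40 had at least 100 counts in each library. When only the 11416 genes with that many counts were tested, 0.447% passed at 2-fold or more and 26.8% at any ratio. Of the 39, 0 and 24 did. The median log2 ratio (replicate 2 over replicate 1) of the 40 genes was -0.10 and that of all genes 0.01, and 32 of the 40 (80.0%) were negative against 48.9% of all. When a biological coefficient of variation of 0.1 was assumed (edgeR exact test), 1 of the 24 still passed, against 2.86% of all genes tested, and with 0.2 none did, against 1.38%; the spread between animals is not known from these libraries.

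Eln was the gene that remained, with 28636 and 20892 expected counts, a log2 ratio of -0.735 (95% interval of counting error -0.761 to -0.709), or 1.66-fold higher in replicate 1. Thbs4 was the other gene past 1.5-fold, with 281 and 224 expected counts and a log2 ratio of -0.61 (-0.87 to -0.35, adjusted p = 3.22e-05 by the exact binomial test). Next came Lox at -0.46 (-0.60 to -0.31, adjusted p = 4.36e-09) and Fmod at -0.41 (-0.57 to -0.25, adjusted p = 4.98e-06). The genes that were higher in replicate 2 were Thbs1 at 0.36 (0.26 to 0.46, adjusted p = 3.40e-11), Tnc at 0.30 (0.10 to 0.50, adjusted p = 0.0156), Fn1 at 0.14 (0.11 to 0.17, adjusted p = 8.14e-19) and Vcan at 0.13 (0.03 to 0.22, adjusted p = 0.0374). Of the leucine-rich proteoglycans 4 of 7 were lower in replicate 2 (Dcn, Bgn, Lum, Fmod) and of the fibulins 3 of 5 (Fbln1, Fbln2, Fbln5). Of the elastic fibre class 4 of 8 were lower, of the basement membrane class 2 of 4 and of the crosslinking enzymes 1 of 3. None was higher in any of these classes. Of the adhesive glycoproteins 6 of 11 were lower and 3 higher, and of versican with its link protein 0 were lower and 1 was higher. Over all genes tested 11.1% were lower and 10.9% higher.

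**Figure D5:**
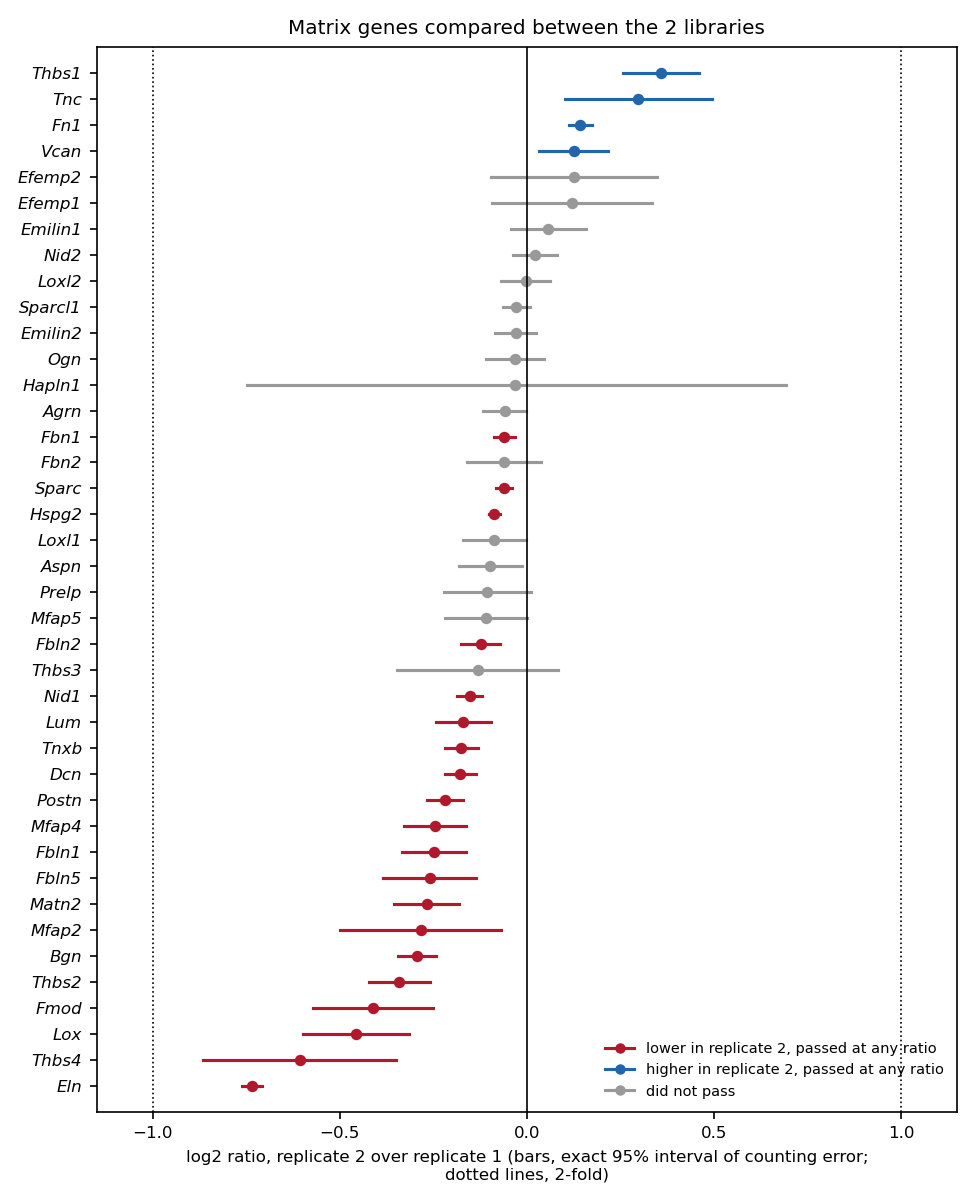
Log2 ratio of replicate 2 over replicate 1 for the 40 genes, from TMM-scaled expected counts, with exact 95% intervals of counting error; red and blue passed the exact binomial test at any ratio and grey did not. Eln (-0.735) lies lowest, Thbs1 (0.359) highest, and no gene reaches the dotted 2-fold lines.

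Markers of several cell types also differed between the libraries, judged by the same test at any ratio, which called 11.1% of all genes lower and 10.9% higher in replicate 2. Fibroblast markers summed to 1024 and 878.2 TPM, with 4 of 7 lower in replicate 2 (Pdgfra, Col1a1, Col1a2, Col3a1) and none higher. Smooth muscle markers summed to 257.4 and 294.0 TPM: Myh11, Tagln and Cnn1 were lower in replicate 2 and Acta2 higher, at 142.5 and 181.5 TPM. Pericyte markers summed to 309.4 and 295.4 TPM, with 4 of 5 lower, and endothelial markers to 312.5 and 294.6 TPM, with 4 of 6 lower. Atrial markers were lower in replicate 2 in 4 of 4 (Nppa at 840.9 and 242.0 TPM), and T cell and thymus markers higher in 6 of 6 tested (Rag1 at 0.02 and 11.96 TPM). Cardiomyocyte markers summed to 27000 and 25540 TPM, with 4 of 6 lower and 1 higher, and adipocyte markers to 53.54 and 32.91 TPM, with 5 of 5 lower. Macrophage markers summed to 44.17 and 54.82 TPM, with 3 of 5 higher and none lower. Epicardial markers were lower in 2 of 5 and higher in 1, Schwann cell markers lower in 1 of 4, and markers of cartilage, tendon or valve lower in 2 of 7 tested. Of the other matrix glycoproteins 21 of 51 tested were lower in replicate 2 and 4 higher, of the glycosaminoglycan genes 7 of 42 were lower and none higher, and of the receptors 8 of 18 tested were lower and 2 higher. The part of these markers in the differences of the 40 genes was not tested.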

How the data were processed

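Total RNA of 2 heart libraries was measured; both belong to 1 group, so no conditions were compared. Per the file headers, each library came with tables per gene and per transcript whose deposited columns are named as in RSEM (expected counts, TPM, a posterior mean of TPM, and each transcript's percent of its gene), and with another transcript table named as in kallisto (estimated counts and TPM). Per the readme files, the build was mm10 and the annotation M21; the tools behind the columns were not given in the sources used here. Estimates of this kind divide reads among annotated transcripts, so forms outside the annotation are not counted and the division among near-identical forms is uncertain.

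The 40 genes were matched by symbol and joined by gene identifier to GENCODE M21. The genes, lists, pairs and most tests were chosen with earlier results of these data known. All 40 genes were named in the text, and genes of the other lists by level (the 4 highest and those under 1 TPM), besides neighbours on the chromosome; Cd44 and Loxl3 were added after their values were seen. Levels are RSEM-style gene TPM; detection needed 1 TPM in both libraries; pair ratios used a pseudocount of 0.1. Kallisto-style values were summed per gene. Exon shares were taken over protein-coding transcripts that span the position; a cassette exon had to be held and skipped by coding transcripts of 1000 bases or more.

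Libraries were compared on expected counts rounded to whole numbers with a 2-sided exact binomial test, TMM-scaled by edgeR 4.0.16 in R 4.3.3, on every gene that had 10 counts in each or 20 in both libraries together, with Benjamini-Hochberg adjustment and a threshold of 0.05; intervals are Clopper-Pearson and cover counting error only. The test was checked on simulated counts that held counting error only, so the check does not cover other spread between libraries. Alternatives used DESeq2 1.42.0 size factors, total counts, spike-ins, kallisto-style counts, other filters and edgeR's exact test with an assumed coefficient of variation of 0.1 or 0.2. Numbered identifiers that are not annotated genes held 0.87 and 2.84 counts and were left out. Depth was 39334380 and 46391250 expected counts, of which spike-ins took 0.517% and 0.531%.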

Additional observations from a re-analysis of the deposited data

How the results depend on the processing

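No paired analysis was possible because the libraries form 1 group. With 1 library left out, detected genes stayed at 39 and their share of TPM ran from 0.215% to 0.236%; EIIIA ran from 28.5% to 31.8% and EIIIB from 24.0% to 24.1%. The share of TPM, 0.226% on average, was 0.262% by the kallisto-style table, 0.207% from protein-coding transcripts and 0.534% over nuclear protein-coding genes. On the mean of the libraries, Efemp2 over Efemp1 was the one pair that turned, to a log2 ratio of -0.12 in counts not divided by length. Pairs with 1 sign in both libraries were 24, and 23 by kallisto-style TPM (Ogn and Aspn) and in counts not divided by length (Eln below Fbn1 in replicate 2, 20892 against 21473 counts). Past 2-fold, 0 genes were called under every scaling, filter and count table tried. With TMM scaling 2 passed at 1.5-fold (5.47% of all genes tested) and 24 at any ratio (22.0%). Total-count scaling gave 1, without Thbs4, at 1.5-fold (5.8%) and 21 at any ratio (23.1%). Kallisto-style counts gave 25 at any ratio (21% of all genes tested) and no filter gave 22 (13.2%). At any ratio, an assumed coefficient of variation of 0.1 left 0 higher and 1 lower in replicate 2, and of 0.2 left 0 of each. Under other scalings, filters and counts, the calls that changed were those of Sparc and Fbn1 (total counts), Mfap2 (total counts, no filter), Vcan (kallisto-style counts, no filter), and Aspn and Agrn, which passed with kallisto-style counts.

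For Fn1, the kallisto-style table gave 20.5% for EIIIB, 73.1% for the whole variable region, 17.1% without its first segment, 9.86% without the region and 70.9% for protein-coding transcripts. Expected counts gave 25.6%, 57.8% and 24.3% for EIIIB, the whole region and its absence, and 97.3% for protein-coding transcripts, which took 90.2% by posterior mean TPM and 91.2% by TPM. EIIIB was 23.9% over all transcripts that span it. The causes were not tested. Hapln1, at 32 and 38 expected counts, had an interval of counting error of -0.75 to 0.69 for its log2 ratio. Differences within that interval could not be told from none at this depth, while 2-fold lay outside it.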
